A study of Mus musculus with 6 samples.

Results

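Lipid droplet and fasting-type genes were followed across cardiomyocytes (CMs) of the mouse left ventricle from late fetal life to the first postnatal week. The set held 10 of the 27998 genes in the count tables: Plin2, Plin4, Plin5, Angptl4, Pdk4, Ucp2, Ucp3, Scd4, Paqr9 and Acot2. It was chosen by symbol, with the levels of these genes in the same libraries already known, so the levels and ratios given here describe the set and support nothing about it. The genes are grouped as known or proposed targets of the peroxisome proliferator-activated receptors (PPARs), although no binding of a PPAR was measured.

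The study asked how CMs leave the cell cycle around birth, and compared diploid (2n) and tetraploid (4n) CMs at embryonic day E16.5 and at postnatal days P1 and P5. All mice were C57BL/6J, with no transgene or treatment, and left ventricles were dissociated, fixed in methanol, stained for the CM protein MYH1 and sorted by DNA content. Each of the 6 conditions, named by age and ploidy as in E16.5-2n or P5-4n, had 1 library of droplet-based scRNA-seq, made from the pooled cells of 3 sorts of separate litters, and the 2n and 4n libraries of an age came from the same sorts. With 1 library per condition no p-value was computed, and every interval covers counting error only. The age field of the E16.5-4n library differs slightly from its title, and the title was followed.

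PPARs are nuclear receptors that are activated by fatty acids and, paired with a retinoid X receptor, bind DNA near genes of fat handling. In fasting and in fat-fed muscle and heart they raise genes that store fatty acids in lipid droplets, release them, burn them in mitochondria and spare glucose. The newborn heart meets a supply of milk fat for the first time, and the switch from glucose to fatty acids as fuel after birth is a known part of CM maturation.

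Cells with at least 1 UMI (unique molecular identifier, a count of captured RNA molecules) of each of Tnni3, Tnnt2, Tnnc1 and Actc1 were kept as CMs, which left 30733 of 31156 cells. No doublet caller was run, and leaving out CMs with the most UMIs or with markers of other cell types served as alternatives. Each library held between 3654 and 7340 CMs with between 13070343 and 19665830 UMIs. Levels are given as CPM, a gene's UMIs scaled to the total UMIs of the CMs of a library, and since reads were counted at the 3' end they do not scale with gene length. The 4n libraries of E16.5 and P1 stood apart, since 21.4% and 32.6% of their CMs had at least 3 UMIs of endothelial, fibroblast, macrophage or mural markers, against 2.16%, 2.47% and 6.0% in the 2n libraries over the 3 ages and 12.8% in P5-4n. Between 2.93% and 3.51% of the CMs of a library carried a barcode found in another library. Of 7 adipocyte markers, Cfd, Cidec and Lep were at 0 in all 6 libraries, and the list held at most 7 UMIs in a library.

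Promoters are shown for the 3 genes that held AGGTCA, the hexamer that many nuclear receptors including PPARs recognise, because 2 of them differ in what their levels did: Ucp3 was nearly absent before birth while Plin2 hardly moved. RefSeq on GRCm38.p6 gave promoters for 8 of the 10 genes, Angptl4 and Paqr9 being the others, and the 250 bases before each start were searched on both strands. In capitals is AGGTCA or, on the other strand, TGACCT, and each sequence is written 5' to 3' in the direction of its gene, without bases that lie in the gene in the GENCODE annotation.
Ucp3, chr7:100472741-100472989, plus strand: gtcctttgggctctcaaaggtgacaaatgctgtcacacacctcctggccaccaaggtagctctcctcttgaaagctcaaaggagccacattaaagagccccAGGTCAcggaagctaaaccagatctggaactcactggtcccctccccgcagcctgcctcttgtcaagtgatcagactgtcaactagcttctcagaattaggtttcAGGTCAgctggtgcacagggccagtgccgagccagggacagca
Plin2, chr4:86670061-86670309, minus strand: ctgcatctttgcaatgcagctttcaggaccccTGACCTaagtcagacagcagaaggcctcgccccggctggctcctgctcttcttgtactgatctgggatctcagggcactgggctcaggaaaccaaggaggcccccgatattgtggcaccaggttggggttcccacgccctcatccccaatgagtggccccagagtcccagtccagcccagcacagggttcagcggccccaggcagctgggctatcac
Plin5, chr17:56117597-56117798, minus strand: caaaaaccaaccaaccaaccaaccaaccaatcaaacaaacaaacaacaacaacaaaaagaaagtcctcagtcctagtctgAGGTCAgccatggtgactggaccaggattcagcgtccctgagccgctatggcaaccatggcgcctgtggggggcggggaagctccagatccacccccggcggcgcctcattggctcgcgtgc
The Ucp3 promoter held AGGTCA at positions -149 to -144 and -44 to -39 from the start, the Plin5 promoter at -170 to -165, and the Plin2 promoter held it on the other strand at -218 to -213. AGGTCA was in 14.0% of all 32851 promoters of this length, on either strand, so its presence in 3 of 8 genes is a description of these letters and not of a site. Its direct repeat with 1 base between is the arrangement bound by PPAR and retinoid X receptor pairs. An exact match to it was in 0.0335% of all promoters and in 0 of the 8 genes with a promoter. At so low a share 0 of 8 says nothing about these genes. Inexact repeats and sites outside the 250 bases were not searched. The variant GGGTCA was in 11.6% of all promoters and, of these genes, only in a second Plin5 window that lies inside the gene in GENCODE.

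Together the 10 genes held 100.7 CPM and 112.2 (2n and 4n) at E16.5, 488.1 and 468.7 at P1, then 419.4 and 397.2 at P5. The make-up of this sum differed with age. Plin2 alone made up 39.6% and 37.6% of it in 2n and 4n at E16.5, but between 7.46% and 10.8% after birth. Pdk4 held between 19.8% and 25.7% in all 6 libraries.

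**Figure D1:**
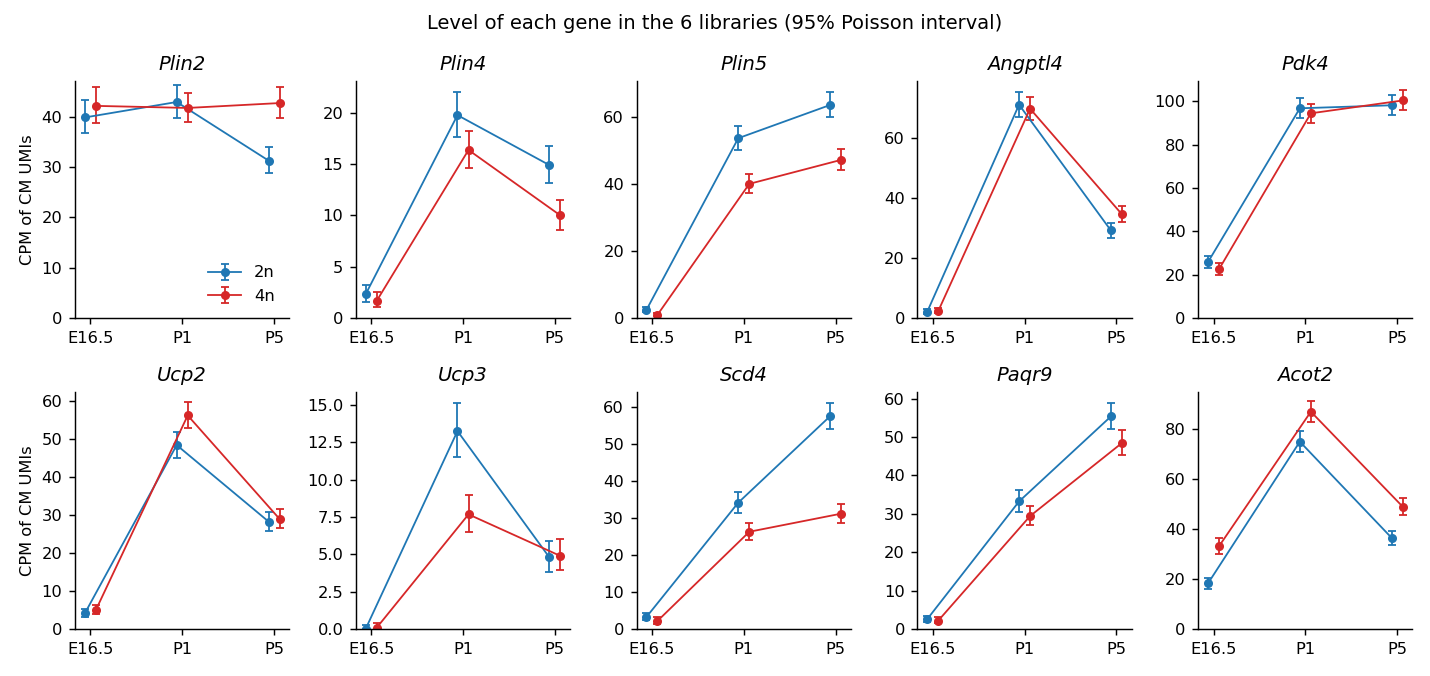
Level of each of the 10 genes in CPM (linear axis from 0) at E16.5, P1 and P5, with 1 point per library, 2n in blue and 4n in red, and bars for the 95% Poisson interval of the UMIs. Plin2 is flat apart from a lower P5-2n, Plin4, Angptl4, Ucp2, Ucp3 and Acot2 are highest at P1, Pdk4 is level from P1 to P5, and Plin5, Scd4 and Paqr9 are highest at P5.

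Perilipins coat lipid droplets and control the access of lipases to the stored fat. Plin2 (chr4:86648386-86670060, minus strand), the perilipin found on droplets of most tissues, was at 39.9 CPM and 42.2 (2n and 4n) at E16.5, 42.9 and 41.7 at P1, then 31.3 and 42.7 at P5. Of these only P5-2n lay below the rest by more than counting error (28.8 to 34.0 CPM).
Plin5 (chr17:56111601-56117596, minus strand), which tethers droplets to mitochondria in heart and other oxidative tissues, was at 2.46 CPM and 0.995 (2n and 4n) at E16.5, 53.7 and 40.1 at P1, then 63.6 and 47.2 at P5. Every postnatal library lay above both fetal ones, and at each age the 4n library lay below the 2n library. The ratio of P1 over E16.5 was 21.8-fold in 2n (36 against 883 UMIs) and 40.3-fold in 4n (13 against 788 UMIs).
Plin4 (chr17:56100591-56109803, minus strand), a perilipin of small droplets in fat and muscle and the neighbour of Plin5 at a distance of 1798 bases, was at 2.33 CPM and 1.68 (2n and 4n) at E16.5, 19.8 and 16.4 at P1, then 14.9 and 10.0 at P5. Its level was highest at P1 in both ploidies, while that of Plin5 was highest at P5, so the neighbours parted after P1. Plin4 overlaps Hdgfl2 on the other strand, which the strand-specific counting separates.

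Angptl4 (chr17:33773750-33781830, minus strand) encodes a secreted inhibitor of lipoprotein lipase that lowers the uptake of fatty acids from plasma in fasting. It was at 2.12 CPM and 2.37 (2n and 4n) at E16.5, 71.2 and 69.8 at P1, then 29.2 and 34.6 at P5. The ploidies lay within counting error of each other at E16.5 and at P1, and 4n was slightly higher at P5. P1 exceeded E16.5 33.6-fold in 2n and 29.4-fold in 4n, and P5 stood at 0.411 of P1 in 2n and 0.496 in 4n.

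Pdk4 (chr6:5483351-5496309, minus strand) encodes a pyruvate dehydrogenase kinase that shuts off the oxidation of glucose carbon in the fasted state. After birth it had the most UMIs of the 10 genes in each library, with 96.7 CPM and 94.4 (2n and 4n) at P1 and 98.1 and 100.3 at P5, against 25.9 and 22.6 at E16.5. The intervals of the 4 postnatal libraries overlapped, and all lay far above the fetal pair. The ratio of P1 over E16.5 was 3.74-fold in 2n and 4.18-fold in 4n, among the smaller ones of the set.

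The uncoupling proteins Ucp2 and Ucp3 are carriers of the inner mitochondrial membrane whose genes lie side by side on chromosome 7, and both are raised by fatty acids in muscle. Ucp3 (chr7:100472990-100486432, plus strand), the form of skeletal muscle and heart, had 0 UMIs at E16.5 in 2n and 1 UMI (0.0765 CPM) in 4n, against 13.3 CPM and 7.68 at P1 and 4.80 and 4.89 at P5. It was thus the lowest of the set in every library. With a floor of 3 UMIs in place of 0, P1-2n was 64.6-fold higher than E16.5-2n, a ratio that leaves out the counting error of P1-2n. The counting intervals were 0 to 0.2522 CPM in E16.5-2n and 11.55 to 15.14 CPM in P1-2n. P1-4n had 151 UMIs against 1 (log2 ratio 6.65, counting interval 4.15 to 11.96).
Ucp2 (chr7:100493337-100502020, plus strand), which is also found in immune and many other cells, was at 4.10 CPM and 4.97 (2n and 4n) at E16.5, 48.3 and 56.1 at P1, then 28.2 and 28.9 at P5. Unlike Ucp3, it was higher in 4n than in 2n at P1. Ucp2 overlaps Dnajb13 and Ucp3 overlaps Gm10603, each on the other strand.

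Scd4 (chr19:44333092-44346743, plus strand) encodes a stearoyl-CoA desaturase found in the mouse heart, an enzyme that makes monounsaturated fatty acids. It was at 3.21 CPM and 2.14 (2n and 4n) at E16.5, 34.2 and 26.3 at P1, then 57.6 and 31.2 at P5. The P5-2n library stood alone at the top, with its interval (54.1 to 61.2 CPM) above that of every other library.
Paqr9 (chr9:95559657-95568023, plus strand), a membrane protein of the progestin and adiponectin receptor family, was at 2.53 CPM and 2.14 (2n and 4n) at E16.5, 33.2 and 29.4 at P1, then 55.3 and 48.4 at P5. In both ploidies it was higher at P5 than at P1, by 1.67-fold in 2n and 1.65-fold in 4n, whereas Scd4 was 1.69-fold higher in 2n with a log2 ratio of only 0.25 in 4n.

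Acot2 (chr12:83987861-83993873, plus strand) encodes a mitochondrial thioesterase that splits fatty acyl-CoA. It was at 18.2 CPM and 33.1 (2n and 4n) at E16.5, 74.9 and 86.9 at P1, then 36.4 and 48.9 at P5, with the 4n library above the 2n library at each age. At P1 more of its UMIs than of the other genes came from CMs with many: in P1-4n, 68 of 4747 CMs had 4 or more UMIs of Acot2 and held 21.4% of them, against 31 CMs with 6.95% for Pdk4, which had more UMIs. In P5-2n the share was 2.91% for Acot2 against 4.21% for Pdk4, while in P5-4n it was 8.57% against 5.74%. No CM of P1-4n had more than 12 UMIs of it, and no CM of P1-2n more than 14. After thinning to an equal depth of 1000 UMIs per CM, its variance over mean in P1-4n was 1.1, the same as for Ucp2. Acot1 is a near-identical neighbour in sequence, so some reads can fit both it and Acot2. The paper counted only reads mapped with confidence, and how many reads of Acot2 this left out is unknown.

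At the step from E16.5 to P1, 9 of the 10 genes were at least 2-fold higher in 2n and the same 9 in 4n, with Plin2 as the exception (log2 ratio 0.11, interval -0.05 to 0.27, in 2n and -0.01, interval -0.17 to 0.14, in 4n). Of all genes with at least 100 UMIs in the pair of libraries, 1.98% were at least 2-fold higher in 2n and 2.88% in 4n. Since the set was chosen by these levels, the counts are set beside each other and nothing is read from them. The median gene shifted by -0.34 in 2n and -0.30 in 4n on the log2 scale, and relative to it the same count of 9 members stood beside 3.87% of all genes in 2n and 5.06% in 4n. Relative to that median Plin2 was at a log2 ratio of 0.44 in 2n and 0.29 in 4n. The log2 ratios in 2n ran from 1.90 for Pdk4 and 2.04 for Acot2, over 3.09 for Plin4, 3.41 for Scd4, 3.56 for Ucp2 and 3.71 for Paqr9, to 4.45 for Plin5 and 5.07 for Angptl4. Ucp3 was at 6.01 against the floor of 3 UMIs, without an interval. The ploidies differed in this step beyond counting error for Acot2, whose ratio was smaller in 4n by 0.65 (log2 difference -0.65, interval -0.89 to -0.40). Acot2 in 4n was also the gene nearest to the threshold, with a log2 ratio of 1.39, and of 0.99 with every CM thinned to 1000 UMIs. Thinned to 2000 UMIs, it was found in 4.82% of CMs of E16.5-4n and 14.1% of P1-4n, against 4.2% and 7.92% at 1000 UMIs. The CMs differ between these depths: 2738 of E16.5-4n and 3749 of P1-4n had 2000 UMIs, against 4857 and 4747 with 1000. For the other 8 genes with UMIs in all 4 libraries the interval of the difference held 0, the widest being that of Plin5 (-0.04 to 1.81). Other lists also moved from E16.5 to P1. The sum of 9 genes of dissociation stress went from 1301 to 743.5 CPM in 2n and from 1271 to 1068 in 4n. That of 6 erythroid genes went from 5127 to 1896 and from 10330 to 2906, and that of 18 cell division markers from 701.4 to 110.0 and from 3311 to 474.4. Their part in the result was not tested.

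**Figure D2:**
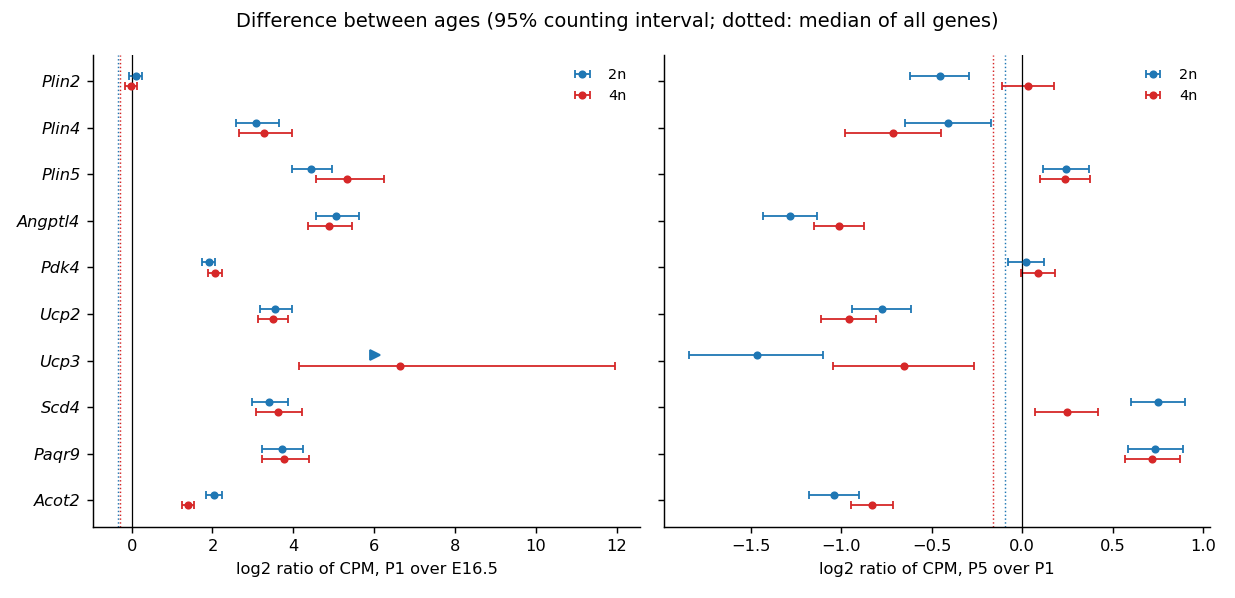
Log2 ratio of CPM for each gene, P1 over E16.5 on the left and P5 over P1 on the right, with 2n in blue, 4n in red, bars for the 95% counting interval and dotted lines for the median of all genes. The triangle marks the lower bound for Ucp3 in 2n, which had 0 UMIs at E16.5. On the left all genes but Plin2 lie right of 1, and on the right Angptl4 has log2 ratios of -1.28 and -1.01 while Paqr9 has 0.74 and 0.72.

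From P1 to P5 the genes of the set went in different directions. In both ploidies 5 genes were lower at P5 beyond counting error (Plin4, Angptl4, Ucp2, Ucp3 and Acot2), 3 were higher (Plin5, Scd4 and Paqr9), Pdk4 was within counting error, and Plin2 was lower in 2n only (log2 ratio -0.46 against 0.03 in 4n). The share of all genes beyond counting error is not given, so these counts are not read as a trait of the set. Of 26 other PPAR targets, 18 were lower and 3 higher beyond counting error in 2n, and 17 lower and 6 higher in 4n. Of 19 other lipid droplet genes, 10 were lower and 3 higher in 2n, and 10 lower and 4 higher in 4n. Of the set, 0 genes were at least 2-fold higher, beside 3.02% of all genes in 2n and 2.4% in 4n. At least 2-fold lower were Angptl4 (-1.28), Ucp3 (-1.47) and Acot2 (-1.04) in 2n, 3 of 10 beside 1.98% of all genes, and Angptl4 alone in 4n (-1.01), 1 of 10 beside 5.85%. The call of Angptl4 in 4n sat at the threshold, with an interval of -1.15 to -0.88, and Ucp2 lay just outside it (-0.96). The median gene shifted by -0.09 in 2n and -0.16 in 4n. Other lists moved with this step: the summed level of 9 genes of dissociation stress was at 743.5 CPM in 2n and 1068 in 4n at P1, against 377 and 413.2 at P5. That of 6 fibroblast markers was at 131.2 and 885.9 CPM at P1 against 243.0 and 333.9, that of 6 endothelial markers at 26.8 and 115.5 against 59.0 and 61.6, and that of 6 erythroid genes at 1896 and 2906 against 2242 and 1649. Each of these genes was above 0 in every library, and their part in the result was not tested.
The P1 libraries enter both age steps, so a high value at P1 enters each with opposite sign. The ploidies differed in the step from P1 to P5 beyond counting error for 5 genes. The share of all genes that differed in this way is not given, so nothing is read from the count. The log2 ratio was more positive in 4n than in 2n by 0.49 for Plin2, 0.27 for Angptl4, 0.82 for Ucp3 and 0.21 for Acot2, while for Scd4 the difference, 4n less 2n, was -0.51.

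Between ploidies at the same age, few of the genes were 1.5-fold apart. At E16.5 only 4 of the genes had 100 UMIs in the pair, and of these Acot2 was 1.82-fold higher in 4n, 1 of 4 beside 10.3% of all genes. At P1, Ucp3 in 4n was at 0.579 of its level in 2n, 1 of 10 beside 9.9% of all genes. At P5, Scd4 in 4n was at 0.542 of its level in 2n, 1 of 10 beside 5.69%, and Plin4 lay just outside the threshold (log2 ratio -0.58, -0.63 without CMs with markers of other cell types).
For 2 genes the ploidies differed in the same direction, beyond counting error, at each of the 3 ages. The share of all genes that did so is not given, so nothing is read from the count. Acot2 was higher in 4n at all 3 ages (log2 ratios 0.86, 0.21 and 0.43 at E16.5, P1 and P5), and Plin5 was lower in 4n at all 3 (-1.31, -0.42 and -0.43), each beyond counting error. At E16.5 Plin5 had 36 UMIs in 2n and 13 in 4n, too few for a call, although its ratio was larger than those called. Ucp2 was higher in 4n at each age (0.28, 0.22 and 0.03), beyond counting error at P1 only. Plin4, Scd4 and Paqr9 were lower in 4n beyond counting error at P1 and P5. At E16.5 their ratios had the same sign (-0.47, -0.59 and -0.24), within counting error. A lower level in 4n was, by its sign, not particular to these genes. Of 8 CM markers, 8, 8 and 6 were lower beyond counting error at E16.5, P1 and P5 (median log2 ratios -0.26, -0.12 and -0.12). At P5 the other 2 were higher beyond it. Of other PPAR targets with 100 UMIs, 20 of 25, 22 of 27 and 15 of 26 were lower (medians -0.27, -0.25 and -0.09), and 1, 2 and 3 higher. The sizes differed by age. The lowest ratio among these targets was -0.49 at P1, below those of Plin4, Plin5, Scd4 and Paqr9. At P5 it was -0.40, and -0.32 among other droplet genes and -0.20 among CM markers, against -0.88 for Scd4, -0.58 for Plin4 and -0.43 for Plin5. The share of all genes lower beyond counting error is not given. The medians of all genes were 0.03, 0.05 and 0.02. An exact paired test over 3 ages cannot give a p below 0.25, so none was made. Acot2 kept a positive ratio without CMs that had markers of other cell types (0.93, 0.20 and 0.45) and without CMs that had markers of cell division (0.96, 0.18 and 0.31). With every CM thinned to 1000 UMIs, its ratio was 1.37 at E16.5, 0.37 at P1 and 0.31 at P5. The E16.5 value differed with the depth of thinning, which also changed the CMs kept. Thinning to 2000 UMIs left 3455 and 2738 CMs (2n and 4n) at E16.5, against 5536 and 4857 at 1000 UMIs. Depth and the choice of CMs cannot be told apart here. Acot2 was found there in 1.68% and 4.2% of CMs (2n and 4n) at 1000 UMIs, and in 3.47% and 4.82% at 2000 UMIs. CMs with markers of cell division were more numerous in the 4n libraries. Without them the P5 ratio was -0.19 for Plin5, -0.63 for Scd4 and -0.25 for Plin4, against -0.43, -0.88 and -0.58 in all CMs. The E16.5 ratio of Plin5 was -0.46 against -1.31. This setting also left out CMs with fewer than 1000 UMIs.

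**Figure D3:**
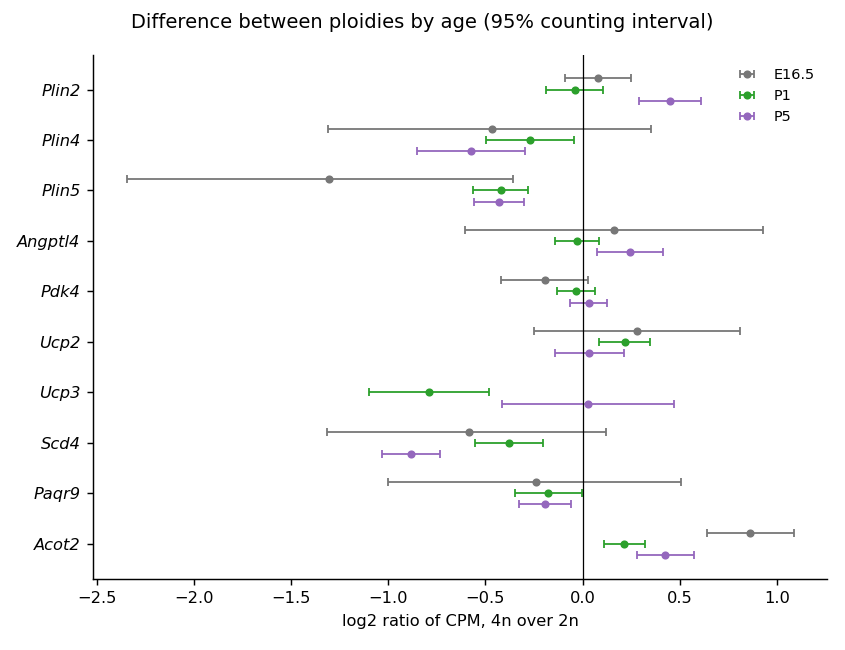
Log2 ratio of CPM, 4n over 2n, for each gene at E16.5 (grey), P1 (green) and P5 (purple), with bars for the 95% counting interval. Acot2 lies right of 0 and Plin5 left of 0 at each age, Scd4 lies farthest left at P5 (-0.88), and Ucp3 has no point at E16.5.

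The families of the 10 genes did not move as a block. Of the pyruvate dehydrogenase kinases, Pdk1 went in 2n from 125.8 CPM at E16.5 to 74.6 at P1 and 62.2 at P5, and Pdk3 from 74.5 to 31.8 and 20.4, while Pdk4 went from 25.9 to 96.7 and 98.1. Pdk2 was intermediate (30.4, 44.6 and 36.6 CPM). In 4n Pdk1 was at 110.9, 60.1 and 61.0 CPM and Pdk3 at 65.4, 32.5 and 20.2.
Among perilipins, Plin1, the form of fat cells, had at most 0.36 CPM, and Plin3 was at 61.3, 54.2 and 30.0 CPM in 2n, so that Plin3 had the most UMIs of the perilipins in E16.5-2n and Plin5 in P5-2n. Of the desaturases Scd2, used for membrane lipids, went in 2n from 280.8 CPM to 153.5 and 123.4, opposite to Scd4, and Scd1 and Scd3 had at most 2.24 CPM. Acot1, the cytosolic paralog of Acot2, was at 42.0, 237.8 and 110.7 CPM in 2n and 38.3, 187.8 and 137.5 in 4n. Like Acot2 it was highest at P1, but its 4n library was not the higher one at E16.5 or P1. Of 22 paralogs 8 had 100 UMIs in E16.5-2n and P1-2n, and of these Acot1 was at least 2-fold higher at P1 (log2 ratio 2.50) and Pdk3 at least 2-fold lower (-1.23).

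**Figure D4:**
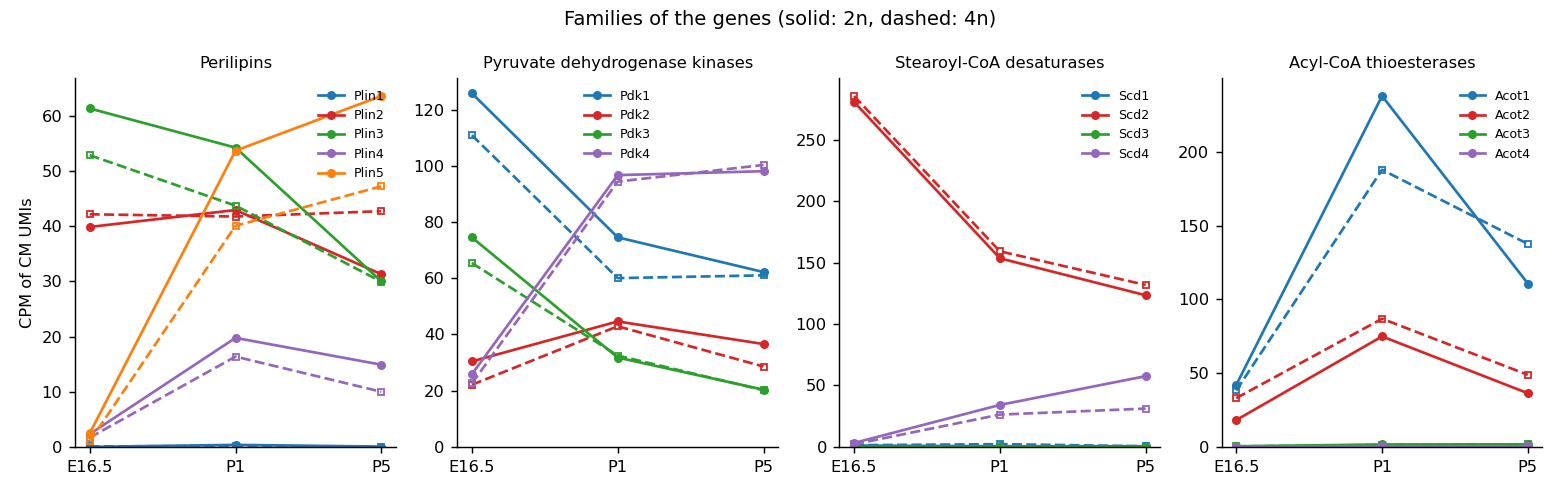
CPM at E16.5, P1 and P5 of the perilipins, pyruvate dehydrogenase kinases, stearoyl-CoA desaturases and acyl-CoA thioesterases, each on its own linear axis, with 2n as filled circles on solid lines and 4n as open squares on dashed lines. Pdk4, Scd4 and Plin5 are higher after birth while Pdk1, Pdk3, Scd2 and Plin3 are lower, and Acot1 and Acot2 are highest at P1.

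Transcripts of the PPARs themselves were scarce, and no receptor or coactivator with at least 100 UMIs was 2-fold apart at birth. Ppara, the main PPAR of heart and liver, was at 3.49, 3.34 and 2.90 CPM over the 3 ages in 2n (3.60, 2.54 and 1.68 in 4n), Ppard at 3.49, 3.04 and 3.24 in 2n, and Pparg, the receptor of fat cells, had at most 0.86 CPM in any library. Of 11 receptors and coactivators, 8 had 100 UMIs at the E16.5 to P1 step in 2n, with 0 at least 2-fold higher and 0 lower, log2 ratios from -0.44 (Esrrg) to 0.59 (Ppargc1b), and a median of -0.07 beside -0.34 for all genes. Rxrg, the retinoid X receptor of muscle, was low but higher with age (0.41, 2.25 and 5.69 CPM in 2n, and 0.08, 2.08 and 7.66 in 4n).
Of 21 other genes of lipid droplets found, 18 had 100 UMIs at this step in 2n. Of these 5 were at least 2-fold higher and 0 at least 2-fold lower, with a median log2 ratio of 0.40. Highest were Lipe, the hormone-sensitive lipase (1.88), and Acsl1, which activates fatty acids (1.87). Lowest were G0s2, an inhibitor of the droplet lipase ATGL (-0.98), and Hilpda (-0.67). Of the 18, 10 were higher and 5 lower beyond counting error.
Of 32 other PPAR targets 26 had 100 UMIs at the step, 17 of them at least 2-fold higher and 0 at least 2-fold lower, with a median of 1.29. Acot1, described above, was among those with the largest ratios, and Acaa1a, a thiolase of peroxisomes, had the smallest (-0.13).
From P1 to P5 in 2n, 0 of 26 of these targets and 0 of 19 droplet genes were at least 2-fold higher, and 2 and 1 at least 2-fold lower.

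Across the 6 libraries the mean log2(CPM) of the set, with a floor of 3 UMIs for Ucp3 at E16.5, was tracked most closely by Acacb (Pearson r 0.9996), the acetyl-CoA carboxylase of mitochondria in heart and muscle, then by mt-Atp6 (0.9973), Nceh1 (0.9969), Cd36 (0.9968) and Cox6c (0.9967), of 6460 genes compared. Over the 3 ages in 2n Acacb was at 21.3, 62.4 and 57.9 CPM. These are correlations over 6 points dominated by the gap between fetal and postnatal libraries, and 289 genes, 4.47% of those compared, had an r above 0.9.

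In single CMs the genes were sparse. Each CM was thinned to 1000 UMIs to hold the depth fixed, which left 6640 of 7340 CMs in P1-2n and a larger share in the other libraries. Pdk4 was then found in 2.78% and 2.16% of CMs (2n and 4n) at E16.5, 9.34% and 9.25% at P1, then 9.15% and 9.88% at P5, the highest shares of the set after birth. Without thinning these shares were 6.28%, 5.8%, 18.7%, 29.2%, 30.0% and 36.6%, in the same order of libraries, and the gap between P1-2n and the deeper postnatal libraries was not seen at equal depth. A UMI of Ucp3 was found in 0 of 5536 CMs of E16.5-2n, where a limit of 3 counts allows up to 0.0542% of CMs with a UMI at this depth, and in 1.25% of CMs of P1-2n (interval 0.997% to 1.55%).
The cells that failed the CM filter, between 24 and 129 per library with median depths from 911 to 1439.5 UMIs, had 0 UMIs of Plin4, Plin5 and Ucp3 in all 6 libraries. By contrast 15 of 129 (11.6%) had a UMI of Ucp2 in P1-2n and 7 of 49 (14.3%) a UMI of Angptl4 in P5-2n. A UMI of Plin2 was in 4 of 30 (13.3%) in P1-4n. The thinned shares in CMs of the same libraries were 4.88%, 2.57% and 4.0%, and the unthinned ones 9.58%, 10.7% and 14.6%. These counts are small, and in P5-4n 1 of 24 had a UMI of Angptl4. The part of free RNA in the counts of Ucp2, Angptl4 and Plin2 was not tested. Summed over CMs, more CMs with an RNA and more RNA per CM cannot be told apart.
Of thinned CMs, 90.2% and 88.3% (2n and 4n) at E16.5 had no UMI of any of the 10 genes, against 62.9% and 63.5% at P1 and 67.0% and 68.3% at P5. At least 3 of the genes were found together in at most 0.906% of CMs, in P1-4n.

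Where pairs of the genes could be counted after birth, the median ratio of CMs with both to the product of the shares was 1.0 and 1.04 (2n and 4n) at P1 and 1.09 in both ploidies at P5. Of the 45 pairs, 36 and 27 (2n and 4n) at P1, 23 and 16 at P5 and 1 in each E16.5 library had a product of at least 5 CMs. Found together more often than the product were 18 and 14 of these at P1, 14 and 9 at P5, and 0 at E16.5. Pearson r over thinned CMs ran from -0.034 to 0.042 in these pairs. The highest ratio among them was that of Plin4 with Angptl4 in P1-4n (9 CMs against 5.2, ratio 1.73, interval 0.792 to 3.29). The lowest was that of Paqr9 with Acot2 in P1-4n (3 CMs against 10.2, ratio 0.294, interval 0.0605 to 0.858). Plin2 with Plin5 in P1-2n was also low (5 CMs against 11.9, ratio 0.42, interval 0.136 to 0.979). Of the pairs with a smaller product, Plin5 with Scd4 in P5-4n, named after its values were seen, had 12 CMs against 4.28 (r 0.073), while in P1-2n this pair had 13 against 10.5 and in P5-2n 12 against 13.5. All these values are weak in sparse counts. The chromosome neighbours Plin4 and Plin5 were found together in 6 CMs of P1-2n against a product of 6.57. Over single CMs the summed set was most correlated with Fabp3 (mean r 0.0403 over 6 libraries), then with Hadhb, Txnip, Fabp3-ps1 and Dbi, of 1600 genes compared, which is likewise weak. Fabp3-ps1 is a pseudogene, and some reads can fit both it and Fabp3.

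CMs with markers of cell division were set against the other CMs of the same library, the class being CMs with at least 2 UMIs of 18 markers such as Top2a and Ccnb1 after thinning. They were 13.7% and 49.1% of CMs (2n and 4n) at E16.5, 1.81% and 7.5% at P1, then 5.9% and 30.3% at P5. Scd4 was lower in CMs with these markers in all 6 libraries (log2 ratios from -2.41 to -1.05), beyond counting error in 3. With all UMIs of the same CMs counted, Scd4 was at 14.5 CPM in CMs with the markers and 38.7 CPM in other CMs of P5-4n, and at 24.2 and 60.1 CPM in P5-2n.
Counted in that way, Plin4 was lower in CMs with the markers in 6 of 6 libraries (3 beyond counting error), as were Paqr9 (3 beyond) and Ucp2 (1 beyond), and Plin5 was lower in 5 of 6 (4 beyond). Ucp3 was lower in the 4 libraries with a ratio (2 beyond). With the thinned UMIs it had a ratio in 2, higher in 1 and lower in 1. With the thinned UMIs Plin4 had a ratio in 3 libraries, lower in each and beyond counting error in 0, Paqr9 was lower in 4 of 6 and beyond counting error in 0, and Plin5 beyond it in 1, and with at least 3 UMIs of the markers Ucp2 was lower in 3 of 6. Plin5 in P5-4n was at 25.7 CPM with the markers and 56.9 CPM in other CMs. Pdk4, Plin2, Angptl4 and Acot2 had no common direction. Angptl4 was higher in CMs with the markers in 4 libraries and lower in 2, beyond counting error upward in 1. Acot2 was higher in 3 and lower in 3, beyond counting error upward in 2. With the thinned UMIs both were beyond counting error in 0. Pdk4 was higher in CMs with the markers in 4 libraries and lower in 2, beyond counting error only in P5-4n (120.0 against 91.2 CPM). Plin2 was higher in 3 and lower in 3, beyond counting error in P5-4n (54.5 against 37.4 CPM) and, in the other direction, in P1-4n (29.6 against 43.0 CPM). For the summed set, the log2 ratio with all UMIs ran from -0.328 (P5-2n) to -0.0909 (E16.5-2n). It was within counting error in E16.5-2n and P1-2n only. After thinning, the ratio of the sum ran from -0.373 (P1-4n) to 0.0526 (P1-2n), beyond counting error in P1-4n only. How many of all genes, CM markers or other PPAR targets were lower in these CMs is not given. The counts are thus not read as a trait of the set. CMs with the markers had more UMIs in each of the 6 libraries (5163 against 4980 per CM in P5-4n). The class is a range of a count, not a cell type.

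**Figure D5:**
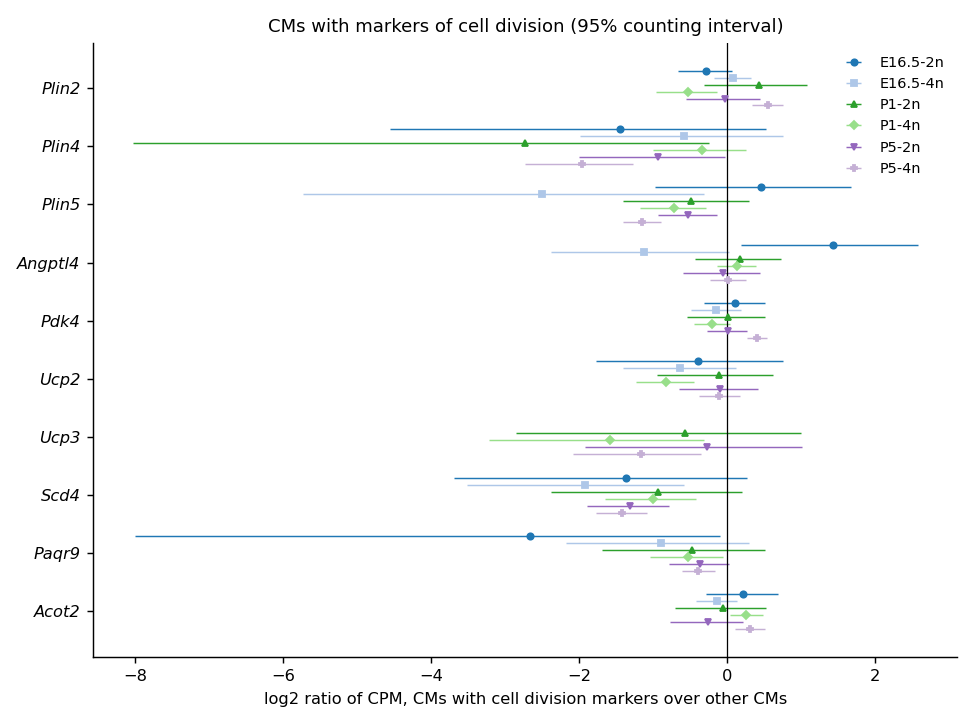
Log2 ratio of CPM between CMs with markers of cell division and the other CMs of the same library, for each gene and library (1 symbol per library), with all UMIs of CMs that had at least 1000 UMIs and bars for the 95% counting interval. Scd4, Plin4, Paqr9 and Ucp2 lie left of 0 in all 6 libraries, Pdk4 and Acot2 on both sides, and libraries with few UMIs have wide bars.

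CMs with at least 3 UMIs of fibroblast markers had a somewhat lower sum of the set than CMs without a UMI of any of the other cell types. Single genes went both ways. The sum of the 10 genes was lower in them in 6 of 6 libraries, beyond counting error in the 4 postnatal ones, with 451 against 480 CPM in P1-4n, where they were 23.4% of CMs, and 365 against 430 CPM in P5-2n. Pdk4 was lower in them in 6 of 6 libraries, by log2 ratios from -1.29 to -0.19, and Ucp2 was higher in 3 and lower in 3. Paqr9 was lower in 6 of 6 and Acot2 in 5 of 6, each beyond counting error in 1. Plin2 and Angptl4 were higher in 5 of 6 and Plin4 in 4 of 6, each beyond counting error in 0. Plin5 and Scd4 were lower in 3 of 5 libraries with a ratio, and Ucp3 in 3 of 4. These CMs also held more UMIs each (5416 against 3389 in P1-4n). In CMs with endothelial markers Angptl4 was higher in 4 of 4 libraries (log2 ratios 0.15 to 1.19), beyond counting error in 1. Plin4 was higher there in 2 of 4, beyond it in 1. Plin5 was lower in 3 of 3 and Pdk4 in 3 of 4, each beyond it in 2. CMs with macrophage markers were enough to compare in 1 library, P1-4n, with Plin2 higher (0.74) and Pdk4 lower (-0.57), both beyond it. Without all CMs that carried markers of other cell types, the same 9 genes were called at the step from E16.5 to P1 in both ploidies.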

How the data were processed

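Raw UMI counts per gene and cell were deposited for 6 libraries of sorted left ventricular CMs. The authors aligned 10x Genomics 3' reads to mm10 (GRCm38) with STAR in Cell Ranger, whose version is not given in the sources used here, and counted strand-specific UMIs in exons and introns. The submitters' notes also name Seurat 2.3.0. The counts were used as deposited. UMIs were summed over CMs and scaled to CPM. Intervals at 95% were exact Poisson for a level, exact binomial for a ratio of counts, and Clopper-Pearson for a share. With 1 library per condition no test was run, and replicate error is unknown. Genes with at least 100 UMIs in a pair of libraries were called at 2 fold between ages and at 1.5 fold between ploidies. CMs were thinned to 1000 UMIs with a fixed seed. The log2 ratios and their intervals were tested on simulated counts, and the other calculations had no such test. The 10 genes and all gene lists were chosen with earlier results of these data known. Named are the 10 genes, paralogs, receptors, the 2 largest and 2 smallest ratios of each list, and the 5 genes most like the set across libraries and across CMs. Some genes that this rule names are not reported here. The split by cell division and the motif searches were added after seeing the data. Alternatives varied the scaling, the CM filter, the depth, the CMs left out and the fold of a call. Promoter sequences came from RefSeq (GRCm38.p6) and gene positions from GENCODE on GRCm38. Python 3.11.15, numpy 2.4.6, scipy 1.17.1, pandas 2.3.3 and matplotlib 3.10.9 were used.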

Additional observations from a re-analysis of the deposited data

How the results depend on the processing

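No paired analysis was possible because the shared replicate number 1 only names the single library of each condition. The 2n and 4n libraries of an age came from the same sorts, which gives 3 pairs and no exact p below 0.25, and a fit of age plus ploidy without replicates was not made. The count of genes at least 2-fold higher at P1 than at E16.5 was 9 in both ploidies under the alternatives run, except that it was 8 in 2n with the mean over CMs, where Ucp3 has no ratio, and 8 in 4n after thinning, where Acot2 was at a log2 ratio of 0.99. Of 689 ratios of single genes under the alternatives, 628 stayed within the counting interval of the reported ratio and 61 moved past it, 24 of these after thinning, 13 under median of ratios scaling, 12 without CMs with markers of cell division, and 0 turned from one called direction to the other. From P1 to P5 at 1.5 fold, 2 genes were higher in 2n and 1 in 4n. At 2 fold, the 1 gene called lower in 4n, Angptl4, was at the threshold: the count was 0 under median of ratios scaling, with the 50 genes of most UMIs left out of the total, with the mean over CMs and without shared barcodes, and 3 after thinning. Between ploidies at 2 fold and without thinning, 0 genes with at least 100 UMIs were apart at each age. At 1.5 fold, 2 were apart at P1 and 2 at P5 after thinning, and at P5 the count was also 2 under median of ratios scaling, without the 50 genes, with the mean over CMs, without CMs with markers of other cell types and without CMs above the 95th percentile of UMIs. For these alternatives from P1 to P5 and between ploidies, the share of all genes called is not given, so nothing is read from the counts. Thinned to 2000 UMIs, pairs above the product of shares numbered 27 in P1-4n, 22 and 15 (2n and 4n) at P5 and 1 in E16.5-2n, with more pairs countable. With at least 3 UMIs of cell division markers, Ucp2 was lower in 3 libraries instead of 6. At E16.5, 6 genes had fewer than 100 UMIs in the pair of libraries, which widens the intervals of their ratios.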
